A study of Mus musculus with 8 samples.

Results

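The TGF-beta ligands, receptors and Smads described here are 10 genes of 37447 in an RNA-seq table of microglia, macrophages that live in brain, spinal cord and optic nerve. They are the rows of the deposited table whose symbol is Tgfb1, Tgfb2, Tgfbr1, Tgfbr2, Smad2, Smad3, Smad4, Smad7, Ski or Tgfbi. Each symbol matched 1 row. Flow sorting took the microglia from optic nerve of C57BL/6 mice aged 3 months. FFC mice carry floxed Nf1 alleles (Nf1 flox/flox) and GFAP-Cre, a Cre recombinase driven by the promoter of an astrocyte gene, so that Nf1 is lost in astrocytes. FF mice carry the same Nf1 flox/flox alleles without Cre and are the controls, so no library comes from mice with unmodified Nf1 alleles. There are 4 libraries of FFC and 4 of FF, each set with 2 females and 2 males, so the comparison sets microglia whose neighbouring astrocytes lack Nf1 against microglia whose astrocytes keep it. The labels do not say whether a library is 1 animal or several, so p-values measure the spread between these libraries only.

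TGF-beta is secreted in a latent form and, once released, binds the type II receptor Tgfbr2, which recruits and activates the type I receptor Tgfbr1. Tgfbr1 phosphorylates Smad2 and Smad3, which join Smad4 and regulate genes in the nucleus. Smad7 blocks the receptor, Ski is a co-repressor that binds the Smads, and Tgfbi is a secreted matrix protein named for its induction by TGF-beta. In the mouse brain, microglia need TGF-beta to keep their mature identity.

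Values are FPKM, which divide a gene's fragments by its transcript length and by the library's mapped fragments. Length is thereby taken out where levels of different genes are set beside each other. Losses of transcripts during amplification of the cDNA are not. The table holds no counts, and the depth behind a value is unknown. The libraries resembled each other loosely, with pairwise Spearman correlations of 0.375 to 0.659 over the 17753 genes tested (those averaging 1 FPKM or more). FF 2 and FF 4 correlated least with the rest (medians of 0.398 and 0.464) and protein-coding genes took 90.4% of all FPKM in FFC 4 and 58.5% to 72.6% elsewhere. All 8 microglial markers examined, among them Csf1r, Cx3cr1, P2ry12 and Tmem119, were present in every library, and their summed FPKM was 3017 to 5610 in FFC and 1605 to 4694 in FF. Endothelial markers (6 of 6 found) summed to 4.59 to 18.8 FPKM in FFC and 20.2 to 45.1 FPKM in FF, without overlap. Each of the 6 overlapped when taken alone. Pecam1 was 12.3 FPKM in FFC 4 and 4.04 FPKM in FF 4, and Flt1 was 12.7 FPKM in FFC 3 and 0.0650 FPKM in FF 3. The 8 astrocyte markers, of which 5 averaged 1 FPKM or more, summed to 91.7 to 188 FPKM in FFC and 114 to 320 FPKM in FF. Of these, Slc1a3 was 85.8 to 182 FPKM in FFC and 49.7 to 192 FPKM in FF. Clu was 0.0124 to 3.45 FPKM in FFC and 23.4 to 127 FPKM in FF, without overlap, and Gfap was 0.0778 to 0.310 FPKM in FFC and 0 to 1.03 FPKM in FF.

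Between FFC and FF, 0 of the 10 genes passed the test. The percentage of all tested genes that passed was also 0 (limma, adjusted p under 0.05). On the log2(FPKM + 1) scale, on which a fold understates the change of low genes, 8 of the 10 had a higher mean in FFC, against 56.7% of all tested genes. Among genes averaging 5 FPKM or more, 7 of 9 members and 64.5% of all genes were higher in FFC. Smad3 and Smad7 had the largest differences, with wide errors. The receptor pair Tgfbr1 and Tgfbr2 varied less between libraries than most genes of their level. In none of the 10 did the 4 FFC values stand clear of the 4 FF values, whereas 3.05% of tested genes had all FFC values above and 1.29% all below.

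**Figure D1:**
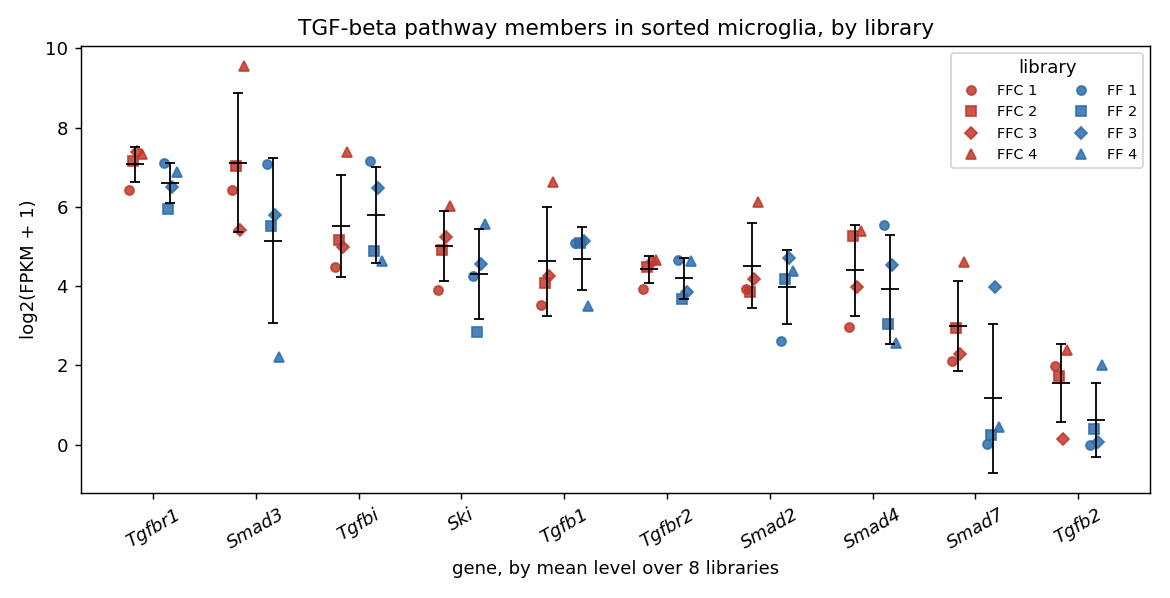
Level of each gene as log2(FPKM + 1), with 1 point per library (FFC in red on the left, FF in blue on the right) and bars for the mean and SD of 4 libraries. The groups overlap for all 10 genes. The Tgfbr1 and Tgfbr2 points lie closer together than those of the other genes, while Smad3 spans 2.20 to 9.55.

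The promoters of the receptor pair are shown because those genes varied together more closely than any other pair of the 10. The sequences are RefSeq's in build GRCm38.p6, from 250 bases before the gene start to 50 after it, on the strand of the gene. Capitals mark matches on either strand to the GC box GGGCGG and the CCAAT box.
Tgfbr1, chr4:47352972-47353271, plus strand: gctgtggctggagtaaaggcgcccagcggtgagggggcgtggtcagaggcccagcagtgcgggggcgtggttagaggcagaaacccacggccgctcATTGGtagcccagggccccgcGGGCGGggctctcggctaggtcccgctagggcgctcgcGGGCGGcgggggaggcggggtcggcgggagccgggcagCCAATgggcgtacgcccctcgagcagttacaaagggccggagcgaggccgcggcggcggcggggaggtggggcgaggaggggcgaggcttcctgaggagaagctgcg
Tgfbr2, chr9:116175314-116175613, minus strand: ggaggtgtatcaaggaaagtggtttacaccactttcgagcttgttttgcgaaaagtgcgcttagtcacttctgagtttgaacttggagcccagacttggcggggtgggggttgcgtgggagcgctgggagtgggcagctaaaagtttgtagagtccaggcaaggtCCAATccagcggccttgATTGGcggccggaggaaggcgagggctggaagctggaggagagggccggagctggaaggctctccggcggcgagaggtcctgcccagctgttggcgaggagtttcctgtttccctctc
The Tgfbr1 window is 74.7% G and C and holds 2 GC boxes and 2 CCAAT boxes. The Tgfbr2 window is 59.0% G and C, with 0 GC boxes and 2 CCAAT boxes. Of 32851 promoter windows of this length, 35.7% hold a GC box and 37.4% a CCAAT box, and their median G and C content is 52.7%. The letters TATAAA are in neither receptor window (13.6% of all windows hold them). The Smad-binding letters CAGAC, searched on both strands, had 0 matches in the printed Tgfbr1 window and 1 in that of Tgfbr2, and 49.6% of all windows have a match. A second Tgfbr1 start in the RefSeq table was not printed. Its window is 52.0% G and C, with 0 GC boxes, 1 CCAAT box and 1 match to CAGAC. Promoters for 7 of the 10 genes were matched by symbol.

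Tgfbr1 (ENSMUSG00000007613, chromosome 4, 47366094 to 47427803 in build mm9), the receptor kinase that phosphorylates Smad2 and Smad3, was the most abundant of the 10. It had 84.8, 141, 167 and 160 FPKM in FFC 1 to FFC 4, against 137, 61.1, 89.5 and 116 FPKM in FF 1 to FF 4. FFC 2 to FFC 4 lie above all 4 FF libraries, while FFC 1 lies below 3 of them, so the groups overlap. Without FFC 1 they did not, but neither did those of 1367 genes in all, against 770 with all libraries. The difference of mean log2(FPKM + 1) was 0.46 ± 0.53 (SE, n = 4 each), with a 95% interval of -0.67 to 1.60 (limma adjusted p = 0.802). Within each library Tgfbr1 stood between percentiles 94.5 and 97.7 of the tested genes.

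Tgfbr2 (ENSMUSG00000032440, chromosome 9, 115993415 to 116084383), the ligand-binding receptor, had 14.3, 21.3, 23.6 and 24.4 FPKM in FFC and 24.1, 11.7, 13.3 and 23.6 FPKM in FF. FF 2, FF 3 and FFC 1 were low and the other 5 libraries were within a narrow band. Its difference was 0.23 ± 0.63 on the log2 scale (95% interval -1.14 to 1.60, limma adjusted p = 0.931). The median difference of all tested genes was 0.19, and relative to it Tgfbr2 differed by 0.04. With the month in the sample titles as a term the Tgfbr2 difference was -0.078.

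The pair varied little and together. The SD of log2(FPKM + 1) over the 8 libraries was 0.50 for Tgfbr1 and 0.42 for Tgfbr2. Of genes within 0.5 log2 units of the same mean level, 93.6% had a larger SD than Tgfbr1 (330 genes) and 98.9% a larger SD than Tgfbr2 (1807 genes). Pearson's r between the pair was 0.93 over 8 libraries, the highest of the 45 pairs among the 10 genes. Genes outside the 10 followed each receptor more closely, among them Anapc4 for Tgfbr1 (r = 0.96) and Tmem189 for Tgfbr2 (0.95). The r of the pair is a description, since the points share libraries and the scaling of each library. The log2 ratio of Tgfbr1 to Tgfbr2 (1 FPKM added to each) was 2.65 ± 0.12 in FFC and 2.41 ± 0.19 in FF (SD, n = 4 each), above 0 in all 8 libraries, and the groups overlapped.

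**Figure D2:**
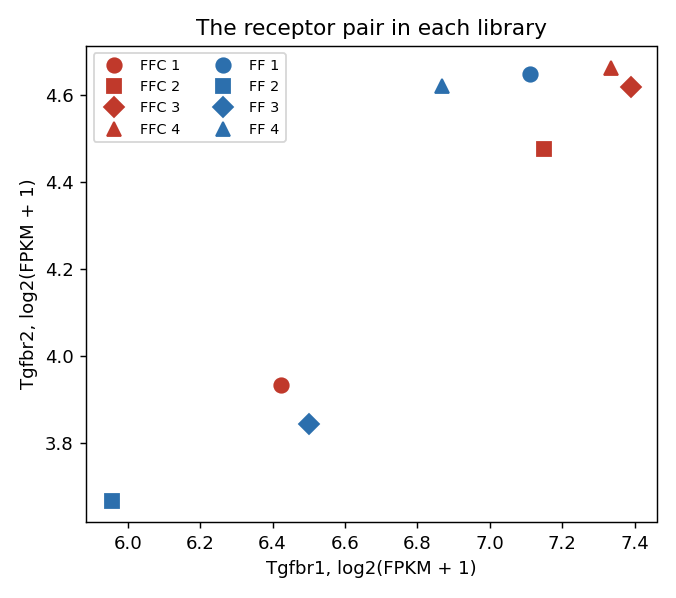
Tgfbr2 against Tgfbr1, both as log2(FPKM + 1), with 1 point per library (FFC red, FF blue). The libraries line up from FF 2, the lowest for both genes, to FFC 3 and FFC 4, and libraries of both genotypes lie at the low and the high end.

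Of the ligands, Tgfb1 (ENSMUSG00000002603, chromosome 7, 26472021 to 26490096), the form that microglia themselves make, had 10.5, 15.9, 18.0 and 98.1 FPKM in FFC, against 32.8, 32.8, 34.2 and 10.2 FPKM in FF. In 3 FFC libraries it was below 3 of the FF libraries, while FFC 4 was the highest of all 8 and FF 4 the lowest. The difference was -0.07 ± 0.79 on the log2 scale (95% interval -1.78 to 1.63, limma adjusted p = 0.985). It was -0.74 without FFC 4 and 0.29 without FFC 1. By the month in the sample titles, the difference was -1.57 among November libraries (FFC 1 against 3 FF) and 1.5 among December libraries (3 FFC against FF 4).

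Tgfb2 (ENSMUSG00000039239, chromosome 1, 188447065 to 188529871), a second ligand, had 2.95, 2.30, 0.108 and 4.19 FPKM in FFC. Among FF libraries it is listed at 0 in FF 1, and FF 2, FF 3 and FF 4 had 0.323, 0.0520 and 2.99 FPKM. It was the least abundant of the 10, and FFC 3 and FF 4 each sat among the values of the other genotype. The difference was 0.94 ± 0.81 (95% interval -0.82 to 2.69, limma adjusted p = 0.759), or 2.09 with a pseudocount of 0.1. Without FF 2 and FF 4 the groups did not overlap, as for 2360 genes in all in that setting, and the difference was 1.52. Within December titles it was -0.58, and within November titles 1.82. Tgfb1 exceeded Tgfb2 in all 8 libraries, by a log2 ratio of 1.54 to 4.26 in FFC and 1.49 to 5.08 in FF.

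Smad3 (ENSMUSG00000032402, chromosome 9, 63494574 to 63605801), one of the receptor-activated Smads, had 85.6, 130, 42.0 and 748 FPKM in FFC, against 136, 44.5, 54.5 and 3.60 FPKM in FF. FFC 4 stood far above and FF 4 far below the other 6, which ranged over both genotypes from 42.0 to 136 FPKM. The difference was 1.96 ± 1.05 (95% interval -0.29 to 4.22, unadjusted p = 0.0828, limma adjusted p = 0.759). Leaving out each library in turn gave 0.98 (without FF 4) to 2.61 (without FF 1), with 1.15 without FFC 4 and 2.52 without FFC 3. It was 0.67 without FF 2 and FF 4 and 2.72 with the month in the titles as a term. The unadjusted p was under 0.05 without FF 1, without FFC 3 and with the month term, where the limma adjusted p was 0.544, 0.83 and 0.573. Within December titles, which hold both extreme libraries, it was 5.14, and within November titles 0.30. Of 599 genes at a similar level, 5.01% had a larger SD over the 8 libraries. The part of library composition in these values was not tested.

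Smad2, the other receptor-activated Smad, on chromosome 18, had 14.2, 13.3, 17.2 and 68.9 FPKM in FFC and 5.08, 17, 25.3 and 19.9 FPKM in FF. Apart from FFC 4, every FFC value lies inside the range of FF. The difference of 0.55 ± 0.77 (95% interval -1.11 to 2.22, limma adjusted p = 0.846) was 0.02 without FFC 4 and 0.10 without FF 1. Smad3 was above Smad2 in 7 of 8 libraries, FF 4 being the exception. The log2 ratio of Smad2 to Smad3 was -2.59 ± 0.98 in FFC and -1.18 ± 2.73 in FF (SD, n = 4 each), with the groups overlapping. Without FF 2 and FF 4 the FFC minus FF difference of that ratio was 0.19, against -1.41 with all libraries.

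Smad4, the shared partner of the activated Smads, also on chromosome 18, had 6.84, 37.6, 14.7 and 41.0 FPKM in FFC, against 45.9, 7.25, 22.2 and 4.90 FPKM in FF. Each genotype has high and low libraries, and the FFC range lies within the FF range. The difference was 0.48 ± 0.86 (95% interval -1.37 to 2.32, limma adjusted p = 0.887). It turned to -0.64 without FF 2 and FF 4, was 0.02 without FF 4, and was -1.41 and 2.32 within November and December titles.

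Among the brakes on the pathway, Smad7, the inhibitory Smad on chromosome 18, had 3.34, 6.72, 3.92 and 23.6 FPKM in FFC, against 0.00776, 0.186, 14.7 and 0.363 FPKM in FF. Every FFC library was above 3 of the FF libraries, and FF 3 was above 3 of the FFC libraries. The difference was 1.83 ± 1.03 (95% interval -0.40 to 4.05, unadjusted p = 0.10, limma adjusted p = 0.759). Without FF 3 the groups did not overlap, as for 1647 genes in all in that setting, and the difference was 2.76, with a limma adjusted p of 0.493. With pseudocounts of 0.1 and 5 the difference was 3.34 and 0.79. The unadjusted p was under 0.05 without FF 3 and with the pseudocount of 0.1. The log2 ratio of Smad7 to Smad3 was below 0 in all 8 libraries, at -4.12 ± 0.75 in FFC and -3.98 ± 2.64 in FF (SD, n = 4 each).

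Ski (ENSMUSG00000029050, chromosome 4, 154528184 to 154596701), the co-repressor, had 13.9, 28.9, 37.0 and 64.5 FPKM in FFC and 18.0, 6.19, 22.4 and 46.7 FPKM in FF. FF 2 was the lowest and FFC 4 the highest, with the rest interleaved. The difference of 0.72 ± 0.75 (95% interval -0.91 to 2.34, limma adjusted p = 0.787) was 0.23 without FF 2, 0.38 without FFC 4 and -0.080 with the month in the titles as a term. Ski followed the receptors across the 8 libraries, with r = 0.82 to Tgfbr1 and 0.79 to Tgfbr2.

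Tgfbi (ENSMUSG00000035493, chromosome 13, 56710920 to 56740923), the induced matrix protein, had 21.3, 35.0, 30.9 and 168 FPKM in FFC, against 141, 28.8, 87.6 and 24.0 FPKM in FF. As with Tgfb1, FFC 4 was the highest library, and the other 3 FFC libraries lay below FF 1 and FF 3. The difference was -0.28 ± 0.80 (95% interval -2.0 to 1.44, limma adjusted p = 0.934), which was -0.91 without FFC 4 and 0.17 without FF 1. Tgfbi and Tgfb1 had r = 0.84 over the 8 libraries, the next highest of the 45 pairs. The markers of macrophages at the borders of the brain (5 of 6 listed found, among them Mrc1, Lyve1 and Pf4) summed to 97.5 to 956 FPKM in FFC and 363 to 1041 FPKM in FF, and were likewise highest in FFC 4 within FFC and in FF 1 within FF. The same libraries were highest for the marker sums of astrocytes (188 FPKM in FFC 4 and 320 in FF 1) and of mural cells and fibroblasts (17.3 and 86.9). So they were for T cells (58.9 and 468). Single genes made up most of some sums. Slc1a3 was 182 FPKM in FFC 4, Slc1a3 and Clu were 192 and 127 FPKM in FF 1, and the T cell marker Trac was 327 FPKM in FF 1. Gfap was 0.0778 FPKM in FFC 4 and 0.0439 FPKM in FF 1. Microglial markers were also highest in FFC 4 within FFC (5610 FPKM), but in FF 3 within FF (4694). Endothelial and oligodendrocyte sums were highest in FFC 4 and FF 4. Monocyte and neutrophil markers were highest in FFC 3 within FFC (730 FPKM) and in FF 1 within FF (2157). The part of any of these cells in the Tgfbi values was not tested. In sorted populations, fewer cells of a type and less RNA per cell cannot be told apart.

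**Figure D3:**
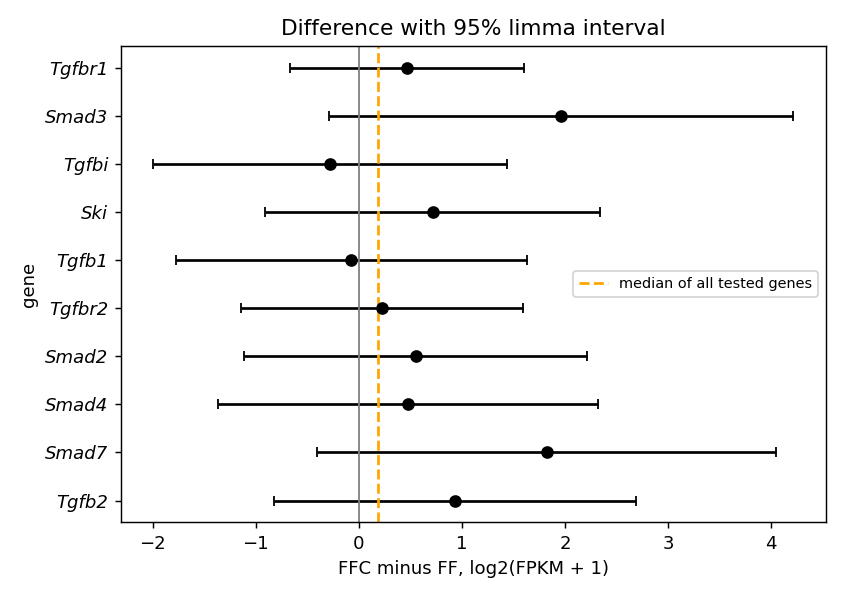
FFC minus FF difference of mean log2(FPKM + 1) for each gene with its 95% limma interval (n = 4 libraries each). The grey line is 0 and the dashed line is the median of all tested genes, 0.19. All 10 intervals include 0, and those of Smad3 and Smad7 reach above 4.

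FFC 4 was the highest library for 8 of the 10 genes (all but Tgfbr1 and Smad4), against 18.9% of all tested genes. The 10 are protein-coding, while that share covers noncoding genes too. Coding genes took 90.4% of all FPKM in FFC 4, the most of any library, and its upper quartile was also the highest. The part of this in the members' values was not tested. The lowest library was FF 1, FF 2 or FF 4 for 3 genes each, and FFC 1 for Tgfbi. Of all tested genes, 11.3% were lowest in FF 1, 17.5% in FF 2, 16.0% in FF 4 and 25.1% in FFC 1. The median difference of the 10 genes was 0.51, against 0.19 for all tested genes. Among genes averaging 5 FPKM or more, the medians lay closer, at 0.48 for 9 of the 10 genes and 0.38 for all genes. The median of the 10 was 0.26 without FFC 4, 0.24 without FF 2, and 0.45 without FF 2 and FF 4. Scaling to the upper quartile, to equal sums or by quantiles left 8 of 10 higher in FFC, with medians of 0.29, 0.32 and 0.32. With the month in the titles as a term, 6 of 10 were higher, with a median of 0.19. At an unadjusted p under 0.05 there were 0 of the 10 genes, against 6.46% of all tested genes (4.52% higher and 1.94% lower in FFC). Relative to the median of all tested genes, the differences of the 10 were -0.26 for Tgfb1, 0.75 for Tgfb2, 0.28 for Tgfbr1, 0.04 for Tgfbr2, 0.37 for Smad2, 1.78 for Smad3, 0.29 for Smad4, 1.64 for Smad7, 0.53 for Ski and -0.47 for Tgfbi. The scalings moved that median from 0.19 to between 0.00 and 0.03.

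**Figure D4:**
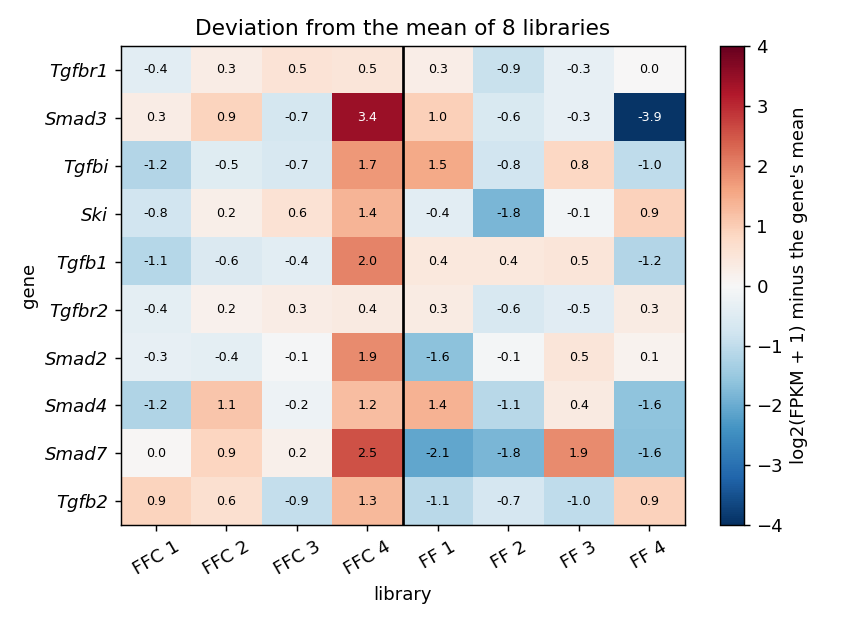
Deviation of log2(FPKM + 1) from each gene's mean over 8 libraries, with FFC libraries left of the line and FF libraries right of it (red above the mean, blue below). The FFC 4 column is red for all 10 genes, and the Smad3 row holds the strongest red (FFC 4) and the strongest blue (FF 4).

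By mean log2(FPKM + 1) over the 8 libraries, the order of levels was Tgfbr1 (6.84 ± 0.50, SD), Smad3 (6.13 ± 2.07), Tgfbi (5.65 ± 1.17), Ski (4.66 ± 1.01), Tgfb1 (4.66 ± 1.04), Tgfbr2 (4.31 ± 0.42), Smad2 (4.24 ± 0.98), Smad4 (4.16 ± 1.20), Smad7 (2.08 ± 1.74) and Tgfb2 (1.09 ± 1.02). Only 1 step in that order exceeded its own spread: Smad4 was above Smad7 in 8 of 8 libraries, by 2.08 ± 1.61 on the log2 scale (SD). The other 8 neighbouring steps had means smaller than their SDs. Ski and Tgfb1, for example, differed by 0.00 ± 1.34, with Ski higher in 4 of 8 libraries. By median FPKM the order was the same except that Smad4 and Smad2 changed places.

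The sexes were compared with genotype as a covariate, and 0 of the 10 genes passed, as did 0 of all tested genes (limma). At an unadjusted p under 0.05 there were 0 of the 10, against 3.99% of all tested genes. The largest sex difference among the 10 was that of Tgfb2, at 1.00 on the log2 scale, female minus male (limma adjusted p = 0.953). The genotype difference of Smad3 was 3.34 in females and 0.58 in males, and that of Smad7 was 3.14 in females and 0.51 in males. The tests of those contrasts between the sexes gave 2.76 ± 2.17 and 2.63 ± 2.08 (SE, limma interaction adjusted p = 1.00 for each). The female libraries include FFC 4, FF 1 and FF 4. For the interaction, 0 genes passed in all, and 3.19% had an unadjusted p under 0.05.

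The rest of the pathway was read from 8 lists of genes, of which 0 members passed the test in either direction. Among genes of latent TGF-beta storage and activation, 7 of 11 passed the filter on low values, with 3 higher and 4 lower in FFC and a median difference of -0.02, against 0.19 for all tested genes. Furin, the protease that cleaves the TGF-beta precursor, had 29.5, 26.3, 15.4 and 26.8 FPKM in FFC, against 4.51, 3.37, 26.5 and 7.77 FPKM in FF. FF 3 alone reached the FFC values, and the difference was 1.51 ± 0.75 (SE, limma adjusted p = 0.759). Ltbp4, a latent TGF-beta binding protein, averaged 2.81 ± 2.93 FPKM in FFC and 5.81 ± 2.32 FPKM in FF (SD, n = 4 each). Tgfb3, the remaining TGF-beta ligand, did not pass the filter and was at most 0.228 FPKM in FFC and 0.340 FPKM in FF.

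Among co-receptors and other receptors of the superfamily, 8 of 9 were tested, with 5 higher and 3 lower and a median of 0.15. Tgfbr3, the co-receptor betaglycan, had 0.197, 0.197, 0.228 and 0.00681 FPKM in FFC. Among FF libraries, FF 1, FF 2 and FF 4 had 17.8, 0.933 and 3.48 FPKM, and FF 3 is listed at 0. The difference was -1.63 ± 0.91 (SE, limma adjusted p = 0.759). The endothelial marker sum was also higher in FF, though each of its markers overlapped between the genotypes. That sum was 31.0, 35.1, 20.2 and 45.1 FPKM in FF 1 to FF 4, so it was not highest in FF 1, where Tgfbr3 was. The marker sums of mural cells and fibroblasts (86.9 FPKM) and of T cells (468 FPKM) were highest in FF 1. The part of any of these cells in the Tgfbr3 values was not tested. Acvr2b, an activin receptor, averaged 1.04 ± 0.77 FPKM in FFC and 2.72 ± 3.07 FPKM in FF (SD, n = 4 each).

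Of other Smads and Smad anchors, 4 of 6 were tested, 2 in each direction, with a median of -0.22. Zfyve9, the anchor SARA that presents Smad2 and Smad3 to the receptor, was the 1 gene of the 8 lists whose groups did not overlap. It had 0.0147, 1.71, 0.585 and 1.20 FPKM in FFC, against 5.30, 6.49, 3.90 and 9.59 FPKM in FF. All FFC values were below all FF values, as for 1.29% of tested genes, and the difference was -2.0 ± 0.77 (SE, unadjusted p = 0.0218, limma adjusted p = 0.712). Leaving out each library in turn gave -2.21 to -1.73. Smad1, which carries signals of bone morphogenetic proteins, averaged 39.9 ± 21.9 FPKM in FFC and 22.2 ± 22.7 FPKM in FF (SD, n = 4 each).

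Of negative regulators, 8 of 9 were tested, with 7 higher and 1 lower and a median of 0.75. Smurf2, a ubiquitin ligase that acts with Smad7 on the receptor, averaged 44.1 ± 9.53 FPKM in FFC and 25.2 ± 16.6 FPKM in FF (SD, n = 4 each), with a difference of 1.16 ± 0.76 (SE, limma adjusted p = 0.759). Without FF 4 that difference was 0.44. Fkbp1a, which binds the type I receptor and holds it inactive, had 119, 57.8, 76.2 and 109 FPKM in FFC, against 46.3, 9.36, 402 and 5.26 FPKM in FF. FF 3 was above and the other 3 FF libraries below all 4 FFC libraries. Of the branch through the kinase TAK1, 5 of 5 were tested, 4 higher and 1 lower, with a median of 0.27. In that branch, Tab1, an activator of TAK1, averaged 2.46 ± 2.37 FPKM in FFC and 0.494 ± 0.609 FPKM in FF, and Tab3 averaged 3.78 ± 0.84 FPKM in FFC and 3.58 ± 3.94 FPKM in FF (SD, n = 4 each).

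Of general Smad target genes, 9 of 12 were tested, with 4 higher and 5 lower and a median of -0.38. The cell-cycle inhibitor Cdkn1a, also a target of p53, had 57.3, 87.0, 6.61 and 151 FPKM in FFC, against 10.3, 0.856, 2.35 and 0.30 FPKM in FF. FFC 3 fell below FF 1, so the groups overlap. The difference was 4.00 ± 1.01 (SE, unadjusted p = 0.00158, limma adjusted p = 0.534). Junb, also an immediate-early gene that tissue dissociation induces, averaged 75.3 ± 51.6 FPKM in FFC and 14.2 ± 20.0 FPKM in FF (SD, n = 4 each; limma adjusted p = 0.651).

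Microglial genes known in mice to need TGF-beta signalling were tested in 12 of 12 cases, with 7 higher and 5 lower in FFC and a median of 0.24. Tmem119 averaged 374 ± 108 FPKM in FFC and 231 ± 110 FPKM in FF, and the complement gene C1qa averaged 640 ± 255 FPKM in FFC and 287 ± 278 FPKM in FF (SD, n = 4 each; limma adjusted p = 0.759 and 0.729). Genes known to rise in mouse microglia without TGF-beta signalling were tested in 7 of 7 cases, with 7 higher, 0 lower and a median of 0.72. Each of the 7 averaged 5 FPKM or more. At that level all genes together had a median difference of 0.38, and for 64.5% of them the FFC mean was the larger. The limma adjusted p of the 7 ranged from 0.755 (Itgax) to 0.940 (Spp1). Itgax, an integrin of activated microglia, had 55.7, 34.7, 56.4 and 10.8 FPKM in FFC, against 20.4, 1.73, 16.9 and 5.21 FPKM in FF (difference 1.93 ± 0.85, SE; limma adjusted p = 0.755). The groups overlap through FFC 4. Apoe averaged 3299 ± 2168 FPKM in FFC and 2062 ± 1366 FPKM in FF (SD, n = 4 each), and its difference of 0.72 was -0.11 without FF 2 and FF 4.

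**Figure D5:**
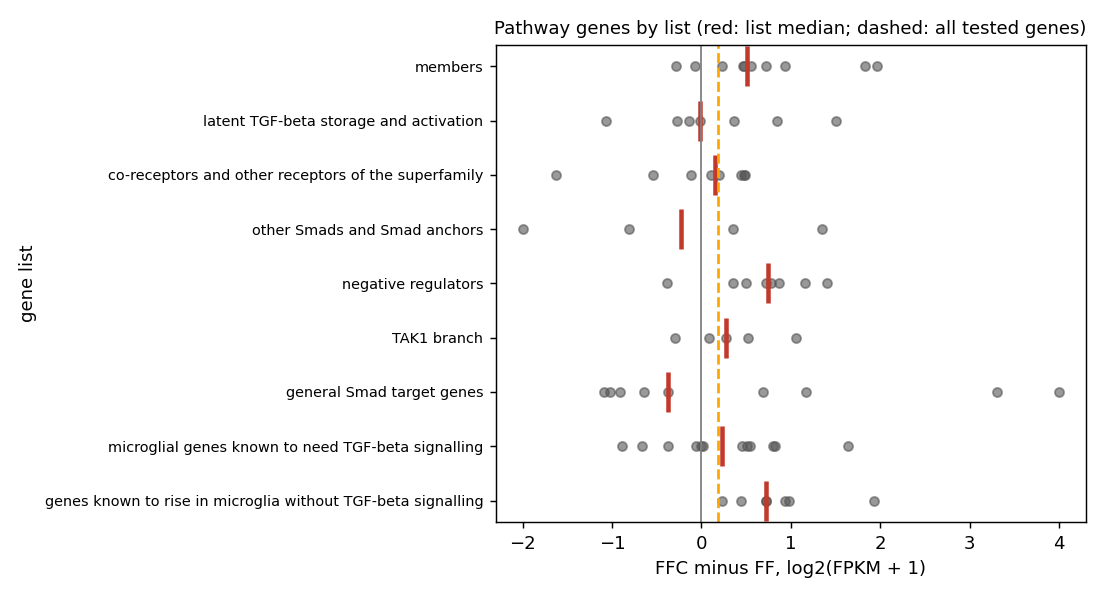
FFC minus FF difference of mean log2(FPKM + 1) for each tested gene (grey points), by list, the top row being the 10 genes described above, with the list median in red and the median of all tested genes dashed. Points spread on both sides of 0 in most lists, and Cdkn1a (4.00) and Junb (3.31) lie far to the right among general Smad target genes.

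The genes whose log2(FPKM + 1) followed each member most closely were sought by Pearson's r over the 8 libraries, among the 8119 that averaged 5 FPKM or more. Those nearest to Tgfbr2 were Tmem14c (r = 0.99), Csnk1e (0.97) and Tmem189 (0.95). Those nearest to Tgfbr1 were Ddx52 (r = 0.97), Nsmaf (0.97) and Anapc4 (0.96). Tgfb1 was followed by Hs6st1, Abcb1b and Zfp784 (r = 0.94 for each). With 8 points and 8119 genes, values of this size are the upper end of a large search and are given as description.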

How the data were processed

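The authors deposited 1 table of FPKM values, 1 column for each library. Tools in the submitters' processing notes are Cufflinks 2.0.2, TopHat2 2.0.4, CASAVA 1.8.2 and Bowtie2 2.0.0, with build mm9, but not what each did; the annotation is not given in those notes. Per the labels' protocols, cDNA was amplified from little RNA with the Ovation method, which can drop transcripts from a library. Of 37447 genes, 447 with a missing value were left out. Starts in the table count from 0 and are printed counted from 1. A listed 0 need not mean no expression: of 2709 coding genes with a median of 20 FPKM or more, 20 had a 0 somewhere.

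Values were used as log2(FPKM + 1) for 17753 genes averaging 1 FPKM or more, including all 10 described here. Genotype, sex (genotype as covariate) and their interaction were tested over all genes with limma 3.58.1 in R 4.3.3 (trend, two-sided, Benjamini-Hochberg, threshold 0.05). Means, ratios and figures used Python 3.11.15, numpy 2.4.6, pandas 2.3.3 and matplotlib 3.10.9. On simulated data for FFC against FF over 17753 genes (5 runs), limma recovered 0%, 4%, 60.4% and 90.8% of genes changed by a log2 of 1, 2, 4 and 6. The changed genes were drawn from those with a mean log2(FPKM + 1) of 3 or more. Smad7 and Tgfb2 lie below that level, so these rates do not describe them. Alternatives were other pseudocounts, filters, scalings and variance models, array weights, sex, month or replicate number as terms, and leaving out libraries. The genes, lists and rules were chosen with earlier results of these data known. From each list the 2 genes with the smallest unadjusted p are named, with Tgfb3, and for Tgfb1, Tgfbr1 and Tgfbr2 the 3 genes with the highest r.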

Additional observations from a re-analysis of the deposited data

Results flagged for a closer look

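In 54 sets of 4 libraries (the 10 genes and the 17 other named pathway genes, in each genotype), 5 held a library whose gap to the nearest of the others exceeded Dixon's 95% critical value on the log2(FPKM + 1) scale. Chance alone gives about 1 in 20. Tgfb1 was low in FF 4, at 10.2 FPKM, where the other FF libraries had 32.8 to 34.2 FPKM. Smad2 was high in FFC 4, at 68.9 FPKM against 13.3 to 17.2 FPKM in the other FFC libraries. Smad7 was high in FF 3, at 14.7 FPKM, where the other FF libraries did not exceed 0.363 FPKM. Tgfb3 was high in FF 4, at 0.340 FPKM, and Tgfbr3 was low in FFC 4, at 0.00681 FPKM, both at levels near the bottom of the table.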

How the results depend on the processing

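Depth is unknown. With 4 libraries per genotype and this spread, differences of a log2 of 2 or less were rarely recovered on simulated data, where low genes were not among those changed. The number of genes called between FFC and FF was 0 in every setting that kept all libraries, ranged from 0 to 2 when each library was left out (1 without FFC 4, FF 1 or FF 3 and 2 without FF 4), and was 4 without FF 2 and FF 4. None of the 10 genes was among them. The number of genes without overlap, 770, was 503 with a mean of at least 5 FPKM, 1146 to 1672 with each library left out and 2360 without FF 2 and FF 4. Genes called between the sexes numbered 0 to 4 with each library left out (4 without FF 2, 3 without FF 4), and for the interaction 0 to 1 (1 without FFC 4 or FF 1), and 6 without the expression filter. For Tgfb1, Tgfbi and Tab3 leaving out each library gave -0.74 to 0.29, -0.91 to 0.17 and -0.045 to 1.06. With month as a term, Tgfbr2 turned to -0.078 and Ski to -0.080. Without FF 2 and FF 4, Smad4 turned to -0.64, Fkbp1a to -0.65 and Apoe to -0.11. The causes were not tested. The replicate block, of same-numbered libraries, left 0 genes called. Same-numbered libraries were of the same sex. Their deviations correlated at -0.05 to 0.03, and those of libraries with different numbers at -0.12 to 0.12. With all values this near 0, the check cannot tell whether the numbers pair the samples. Of the values of single genes under alternatives, 586 kept their direction and side of the threshold or, within a month, moved by less than the spread, 14 reversed, and 15 within-month values, which have no test, moved by more than the spread.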
